A study of Rattus norvegicus with 4 samples.

Results

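The chemokines and chemokine receptors were described in the rat soleus, a calf muscle of mostly slow fibres. The members were all genes whose symbol starts with Ccl, Cxcl, Ccr, Cxcr, Xcl, Xcr or Ackr followed by a number, with Cx3cl1 and Cx3cr1 added, and gene names that only resemble these were left out. The reference gene table holds 57 such genes, and 53 of them had a probe among the 26633 genes and transcripts on the array: 33 ligands, 18 receptors and 2 atypical receptors. Ackr1, Ackr4, Ccr8 and Cxcl3 were matched by no probe.

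RNA was measured on 4 one-colour arrays, 1 for each group, and each array held RNA of 6 muscles of male rats mixed in equal amounts. Regenerated overloaded muscle came from rats aged 18 weeks and had been overloaded after regeneration, the time since injury not being given. Overloaded muscle, named hypertrophied in the labels, came from rats aged 18 weeks with no injection named. Regenerated muscle was taken at 16 weeks of age, 8 weeks after an injection named CTX, which the labels do not expand and which in muscle work usually stands for cardiotoxin, a toxin of cobra venom used to kill fibres. Normal muscle came from rats aged 16 weeks. How and for how long the load was raised, the strain, any sham treatment, and whether groups shared animals are not given in the labels. Age and the row of the slide went with overload, so neither can be told apart from it. The sample titles mark normal and overloaded muscle with R, and regenerated and regenerated overloaded muscle with L, letters that the labels do not expand. That mark went with earlier injury, so it cannot be told apart from injury. The 6 muscles of a group cannot be told apart on its array, so differences between groups carry no replicate error and were not tested.

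Chemokines are small secreted proteins that guide leukocytes along gradients held on cell surfaces and matrix. They act through receptors coupled to Gi proteins on leukocytes and on some stromal cells, whereas atypical receptors bind chemokines and take them up without that signal. In injured muscle the family is known for drawing in neutrophils and then monocytes, which clear dead fibres before new ones mature.

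Sequences upstream of 5 members are shown. Cxcl10, Cxcl13 and Ccl12 were 2-fold or more higher in an overloaded group, Ccl7 lies next to Ccl2, which was so too, and Cxcl9 lies next to Cxcl10 and differed from it across the arrays. Each is the 250 bases before the start of the gene in the RefSeq promoter table of build GRCr8, 5′ to 3′ on the strand of the gene. Capitals mark matches, on either strand, to 3 sets of letters: for NF-kB, GGGA, any 4 bases and CC; for AP-1, TGANTCA; for the interferon response element, GAAA, any 2 bases and GAAA.
Cxcl10, chr14:15988816-15989065, plus strand: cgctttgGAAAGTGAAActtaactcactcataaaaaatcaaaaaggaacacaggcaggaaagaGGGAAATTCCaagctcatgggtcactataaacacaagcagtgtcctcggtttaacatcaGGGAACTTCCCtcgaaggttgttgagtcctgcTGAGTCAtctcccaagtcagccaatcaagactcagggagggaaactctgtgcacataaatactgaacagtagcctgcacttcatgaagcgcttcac
Cxcl9, chr14:16006916-16007165, plus strand: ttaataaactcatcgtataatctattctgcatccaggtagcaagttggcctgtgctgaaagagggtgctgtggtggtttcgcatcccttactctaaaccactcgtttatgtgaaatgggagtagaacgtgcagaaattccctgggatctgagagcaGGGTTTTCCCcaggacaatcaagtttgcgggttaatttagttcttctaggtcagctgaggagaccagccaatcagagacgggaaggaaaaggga
Cxcl13, chr14:13917921-13918170, minus strand: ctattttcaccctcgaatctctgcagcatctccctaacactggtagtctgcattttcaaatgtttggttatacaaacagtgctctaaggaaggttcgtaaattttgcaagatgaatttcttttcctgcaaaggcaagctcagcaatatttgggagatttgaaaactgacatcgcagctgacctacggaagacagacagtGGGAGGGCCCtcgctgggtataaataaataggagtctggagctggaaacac
Ccl7, chr10:67513845-67514094, plus strand: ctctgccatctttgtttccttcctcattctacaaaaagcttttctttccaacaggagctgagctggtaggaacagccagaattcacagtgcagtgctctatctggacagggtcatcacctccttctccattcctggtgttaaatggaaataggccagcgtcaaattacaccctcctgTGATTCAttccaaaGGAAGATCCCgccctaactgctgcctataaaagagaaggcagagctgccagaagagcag
Ccl12, chr10:67567626-67567875, plus strand: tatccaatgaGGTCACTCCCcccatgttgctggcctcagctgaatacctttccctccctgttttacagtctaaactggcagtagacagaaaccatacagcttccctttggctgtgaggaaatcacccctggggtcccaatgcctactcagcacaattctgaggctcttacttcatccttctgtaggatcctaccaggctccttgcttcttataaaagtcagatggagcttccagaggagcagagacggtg

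NF-kB, AP-1 and the interferon regulatory factors are transcription factors known to act on chemokine genes after inflammatory signals. Reading from the 5′ end, Cxcl10 held an interferon response element match, an NF-kB match, a run in which 2 overlapping NF-kB matches lay on opposite strands, and an AP-1 match. Cxcl9, Cxcl13 and Ccl12 held 1 NF-kB match each, and Ccl7 held an AP-1 match followed by an NF-kB match. The sequences shown are a selection, and not all members higher in an overloaded group held an NF-kB match. Ccl6, 2-fold or more higher in overloaded than in normal muscle, held no NF-kB, AP-1 or interferon response element match. Xcr1, 2-fold or more higher in regenerated overloaded than in regenerated muscle, held an AP-1 match alone. The promoter table matched 43 of the 57 members, and 27 of the 34 that were above background on at least 1 array. Ccl11, Ccl2, Ccl3, Ccl4 and Ccl5 were among those not matched. The NF-kB letters were found upstream of 16 of the 43 members and of 16.79% of the 27457 promoters in the table. The AP-1 letters were found upstream of 7 members and of 6.363% of all promoters. The interferon response element letters were found upstream of 2 members, Cxcl10 and Ccl19, and of 3.285% of all promoters. A TATAAA box on the strand of the gene was found upstream of 11 members and of 8.38% of all promoters, and TTGCNNAA, the letters of C/EBP factors, upstream of 7 members and of 9.196%. These matches describe letters in the window, and binding was not measured.

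Signals are given in intensity units after each array was scaled so that the 75th percentile of its probe signals stood at a common 749.8. A difference is the log2 of the first named group's signal minus that of the second, followed by a technical SE from repeated spots of a probe on 1 array, which holds no spread between muscles. A gene counted as measured if 1 or both of the arrays compared showed its probe well above background, and it was called higher or lower at 2-fold or more. For a probe above background on 1 array alone, the other array was given the lowest signal that passed as above background there, or the dim probe's own signal where that was higher, and such folds are written as at least. No fold is given where that limit was not exceeded. For Ccr1 and Xcl1 against normal muscle the dim signal itself was the higher, so their folds are not lower limits and are given without those words.

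The arrays differed in sensitivity. The lowest scaled signal called well above background was 17.8 in regenerated overloaded, 14.7 in overloaded, 16.5 in regenerated and 32.5 in normal muscle, where the median local background of 44 units stood above the 32 to 33 units of the other arrays. Of all genes, 62.1% were above background in regenerated overloaded, 64.8% in overloaded, 63.3% in regenerated and 54.5% in normal muscle. All 7 slow-fibre markers checked (Myh7, Tnni1, Tnnc1, Tnnt1, Acta1, Ckm and Mb) were above background on the 4 arrays. Their summed signal was 2015 times the 75th percentile in regenerated overloaded, 2151 in overloaded, 2197 in regenerated and 2665 in normal muscle. Their median difference from normal muscle was -0.24 in regenerated and -0.30 in overloaded muscle, with 0 of 7 positive in both, and none was called. Regenerated overloaded muscle had medians of -0.18 against regenerated and -0.11 against overloaded muscle, with 1 of 7 positive in each. The part of this in the member values was not tested. Probes of different genes differ in response, so their signals give no order of levels between genes, and a high mean signal served only to choose some members to describe.

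Of the 53 members, 33 were above background in regenerated overloaded muscle (62.3%), 31 in overloaded muscle (58.5%), 28 in regenerated muscle (52.8%) and 21 in normal muscle (39.6%). In all, 34 members, 24 ligands and 10 receptors of both kinds, were above background on at least 1 array, and 21 of them, 16 ligands and 5 receptors, on all 4. Ccl3, Ccl17, Cxcl1, Cxcl10, Cxcl13, Xcl1 and Ccr1 were above background on every array but normal, and Ccl12 and Ccr2 on both overloaded arrays alone. Where they passed, Cxcl1 at 18.2 to 30.3 units and Ccr2 at 25.9 and 27.6 units lay under the normal array's limit of 32.5. Their failing on the normal array thus shows no difference from it. The same holds for Ccl17 in regenerated overloaded and overloaded muscle, at 29.4 and 32.1 units. It holds too for Cxcl10 in regenerated muscle, at 29.5 units. Ccl4 passed in overloaded muscle alone, and Ccr6, Cxcr3 and Xcr1 in regenerated overloaded muscle alone. For Ccl4, Ccr6 and Cxcr3 this shows no difference between the overloaded arrays. Ccr6 and Cxcr3 had 33.3 and 24.3 units in overloaded muscle, where a spot of each failed, and 29.9 and 21.6 in regenerated overloaded muscle. Ccl4 had 19.2 units in overloaded and 19.4 in regenerated overloaded muscle. The other 19 members were above background on no array, with scaled signals between 3.32 and 22.1. They were the ligands Ccl1, Ccl20, Ccl25, Ccl26, Ccl28, Cxcl2, Cxcl6, Cxcl11 and Cxcl17 and the receptors Ackr2, Ccr1l1, Ccr3, Ccr4, Ccr7, Ccr10, Cxcr1, Cxcr2, Cxcr5 and Cxcr6. Cxcl2, Cxcl6, Cxcr1 and Cxcr2 belong to the set of ligands and receptors known for moving neutrophils.

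**Figure D1:**
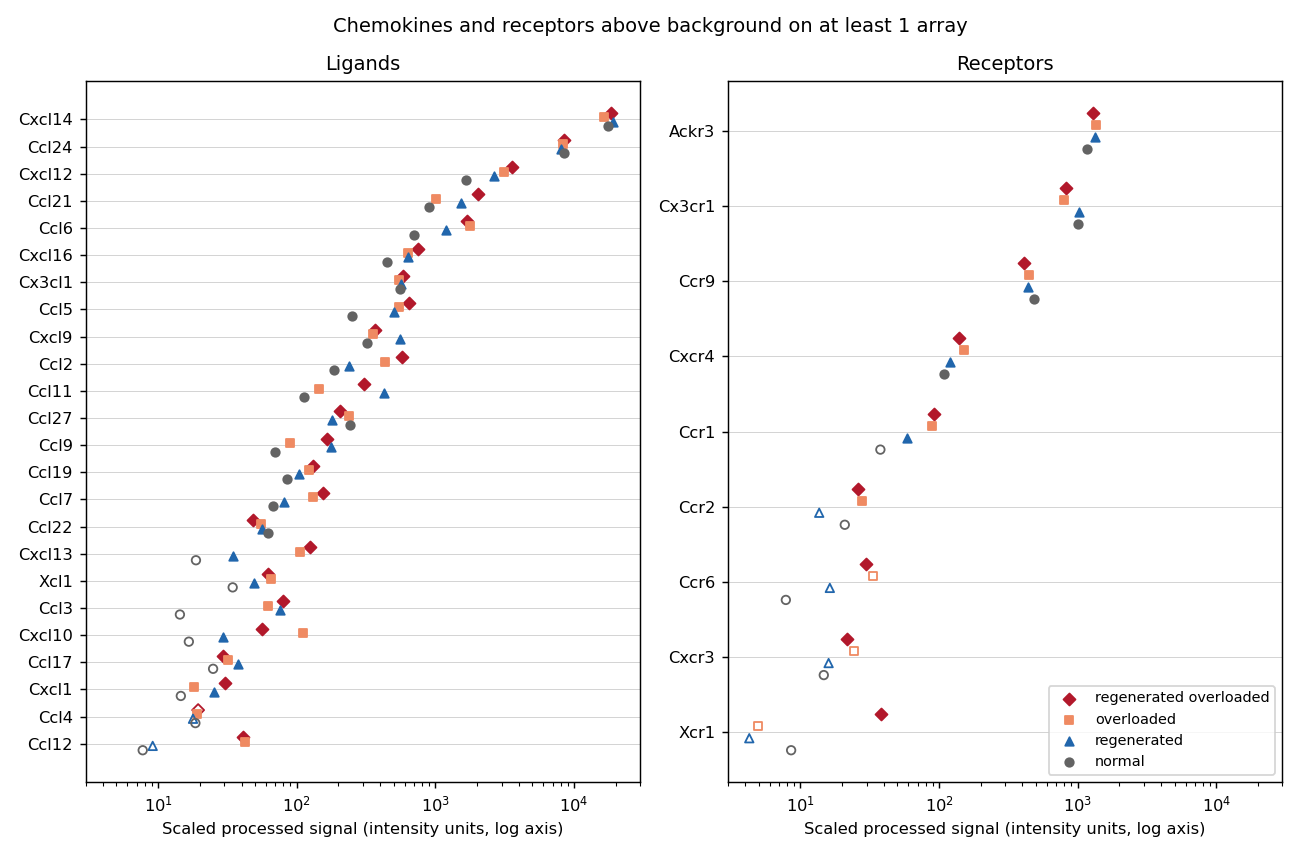
Scaled signal (log axis, intensity units) of 33 members above background on at least 1 array, 1 point per array. Open points were not well above background, and most of those lie on the normal array, where 13 of the 33 were not above background.

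In regenerated against normal muscle, 4 of the 28 measured members were higher by 2-fold or more and none was lower. They were the ligands Ccl11, Ccl9, Ccl3 and Ccl5, and no receptor of the 6 measured reached 2-fold. Over all 16911 genes measured, 1.25% were called higher, 0.662% lower and 1.92% either way. Among the 21 members above background on both arrays the median difference was 0.28, against -0.11 over all 14449 genes of that kind. Over the 28 members, 24 differences were positive with the dim signals taken as they stood, against 39.98% of all genes. Their median was 0.51 in that reading and 0.26 with dim members set at their bound, and part of these members were measured only through the regenerated array.

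Ccl11 is eotaxin, which attracts eosinophils through Ccr3. It had signals of 305 units in regenerated overloaded, 145 in overloaded, 428 in regenerated and 114 in normal muscle. The regenerated array was highest, and both arrays of muscle with earlier injury lay above both of those without. The difference of regenerated minus normal muscle was 1.92 (technical SE 0.14), a fold of 3.77. Ccr3 was above background on no array, and of 4 eosinophil markers Prg3, Epx and Il5ra were above background on none. The other, Prg2, was above background on all 4, at 40.1 units in regenerated overloaded, 50.5 in overloaded, 52.9 in regenerated and 54.7 in normal muscle.

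Ccl9, which in mouse acts through Ccr1, followed the same order by injury. Its signals were 165 units in regenerated overloaded, 89.2 in overloaded, 176 in regenerated and 69.7 in normal muscle, and regenerated exceeded normal muscle by 1.33 (technical SE 0.32), or 2.52-fold. The 2 arrays of muscle with earlier injury were both above the other 2, as for Ccl11.

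Ccl3, or MIP-1 alpha, is a ligand of Ccr1. Its signals were 79.4 units in regenerated overloaded, 61.9 in overloaded, 76.0 in regenerated and 14.4 in normal muscle, over 10 spots per array. The normal array alone was not above background, and regenerated exceeded normal muscle by at least 2.34-fold. The related ligand Ccl4 gave no fold in any comparison.

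Ccl5, or RANTES, is a ligand made by T cells, platelets and macrophages. It had signals of 646 units in regenerated overloaded, 545 in overloaded, 506 in regenerated and 249.8 in normal muscle. The normal array was low and the other 3 lay together, so that regenerated exceeded normal muscle by 1.02 (technical SE 0.09), or 2.02-fold. That value is just past the threshold, and under quantile normalization it was 0.98.

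Overload without earlier injury gave the most calls of the 4 comparisons, except with normexp background correction, where 3 comparisons had 1 call each. In overloaded against normal muscle, 7 of the 31 measured members were higher by 2-fold or more and none was lower. They included the ligands Cxcl10, Cxcl13, Ccl6, Ccl2 and Ccl5 and the receptor Ccr1. Over all 17308 genes measured, 2.42% were called higher, 0.74% lower and 3.15% either way. The median over the 21 members above background on both arrays was 0.35, against -0.12 over all 14458 genes of that kind. Over the 31 members the median was 0.40 with dim signals as they stood and 0.36 with dim members at their bound, and 24 differences were positive, against 41.7% of all genes. These 31 include members measured only through the overloaded array.

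Cxcl10, or IP-10, is an interferon-induced ligand of Cxcr3 on activated T cells, and its upstream sequence is among those shown above. It had signals of 55.7 units in regenerated overloaded, 111 in overloaded, 29.5 in regenerated and 16.7 in normal muscle. The overloaded array was the highest, the regenerated overloaded array the next, and the normal array was not above background. Overloaded exceeded normal muscle by at least 3.42-fold. Regenerated overloaded muscle was above regenerated muscle by 0.92 (technical SE 0.34) and below overloaded muscle, at -0.996 (technical SE 0.23), a fold of 1.99 and so just under the threshold.

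Cxcl13 guides B cells to lymphoid follicles through Cxcr5. Its signals were 126 units in regenerated overloaded, 106 in overloaded, 34.6 in regenerated and 18.8 in normal muscle. Both overloaded arrays were high and both arrays without overload were low, the normal one below background. Overloaded exceeded normal muscle by at least 3.27-fold. Cxcr5 and the B cell marker Cd79b were above background on no array, and the B cell marker Pou2af1 was above background on every array but normal.

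Ccl6 is a rodent chemokine that in mouse acts through Ccr1. It had signals of 1689 units in regenerated overloaded, 1765 in overloaded, 1195 in regenerated and 704 in normal muscle. Both overloaded arrays were high, the regenerated array stood between, and overloaded exceeded normal muscle by 1.33 (technical SE 0.07), or 2.51-fold.

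Ccl2, or MCP-1, is the main ligand that draws monocytes through Ccr2. It was read from 8 to 10 spots per array, with signals of 574 units in regenerated overloaded, 430.3 in overloaded, 237 in regenerated and 186 in normal muscle. Spots of the overloaded arrays spanned 383 to 603 units and those of the arrays without overload 169.6 to 269 units, so the 2 sets did not overlap. Overloaded exceeded normal muscle by 1.21 (technical SE 0.04), or 2.31-fold.

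Ccl5 exceeded normal muscle under overload by 1.13 (technical SE 0.09), or 2.18-fold, from the signals given above. The ligands Cxcl12 at 0.90, Ccl7 at 0.94, Xcl1 at 1.89-fold and Ccl3 at 1.90-fold or more stayed under the threshold in this comparison. Under the scaling of the authors' deposited table all 4 passed 2-fold. A second, dimmer probe of Xcl1 was above background in overloaded muscle alone, at 47.1 units. It had 23.8 in regenerated overloaded, 16.7 in regenerated and 18.5 in normal muscle. Regenerated overloaded minus overloaded muscle was -0.98 for that probe and -0.07 for the brighter one.

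Ccr1, a receptor of monocytes and neutrophils, had signals of 92.2 units in regenerated overloaded, 89.1 in overloaded, 58.4 in regenerated and 37.8 in normal muscle. On the normal array a spot of 47.9 units passed as above background and one of 29.7 did not, so the probe did not pass. Overloaded exceeded normal muscle by 1.24 (technical SE 0.33) for Ccr1, or 2.36-fold, against that dim signal.

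**Figure D2:**
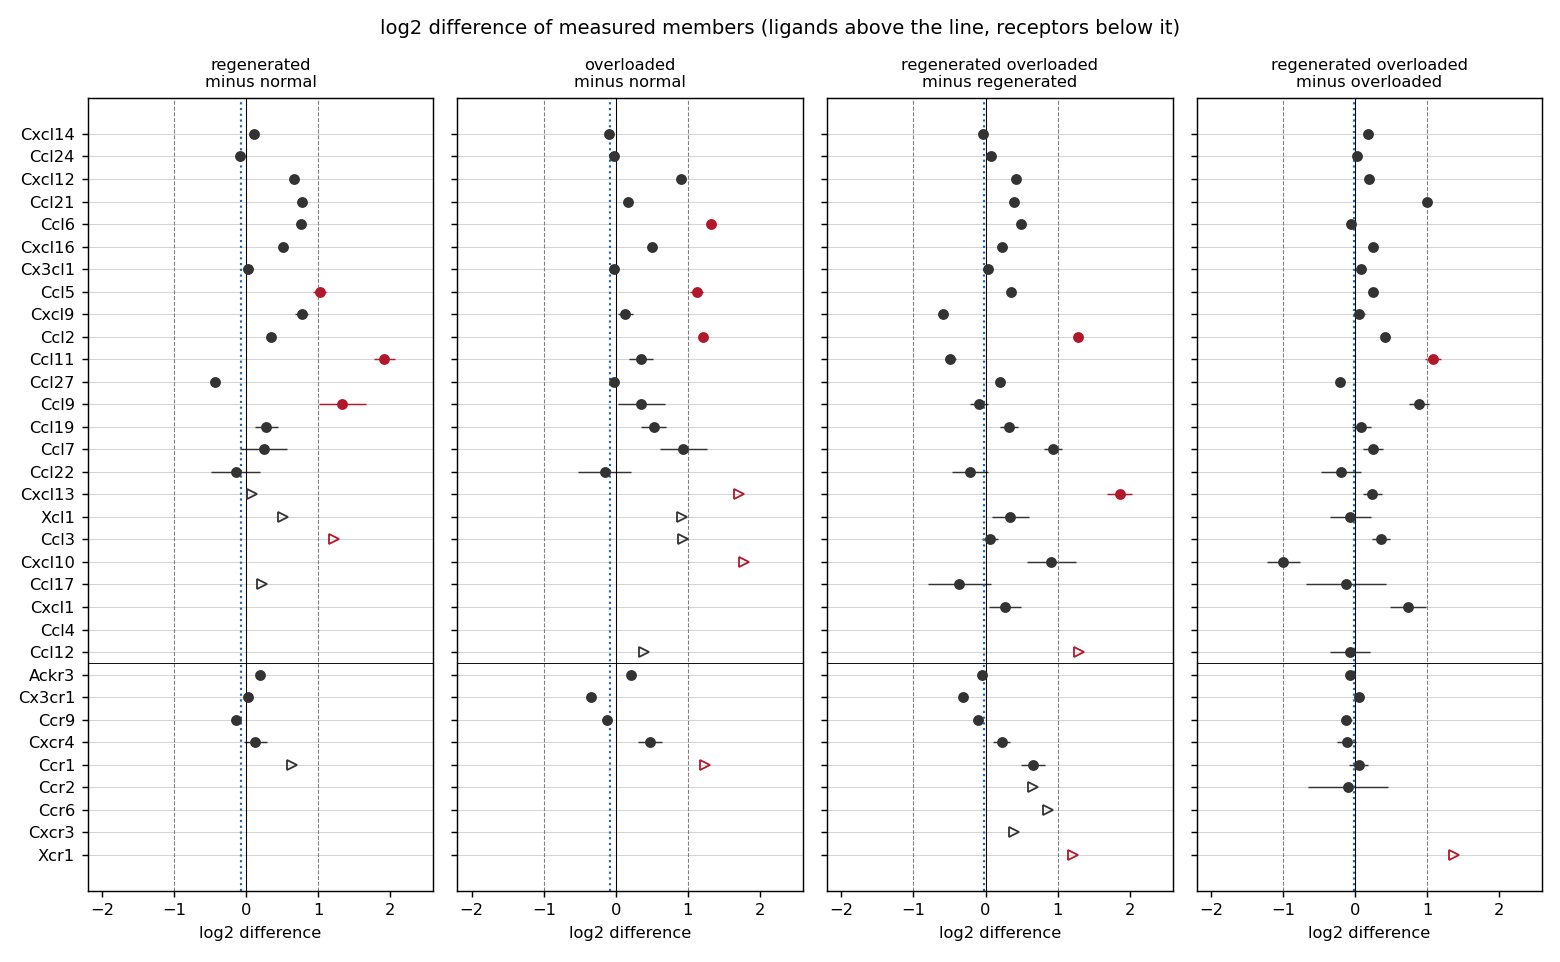
Log2 differences of measured members in the 4 comparisons, 1 panel each, with technical SE bars. Triangles are members above background on 1 array alone and carry no bar. They are at-least values, except those of Ccr1 and Xcl1 against normal muscle. Dashed lines mark 2-fold, dotted lines the median of all measured genes, and red marks the calls. Points past the upper line number 4, 6, 4 and 2, and none lies past the lower line. In overloaded against normal muscle 1 of the 7 called members is not drawn.

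In regenerated overloaded against regenerated muscle, 4 of the 33 measured members were higher by 2-fold or more and none was lower: the ligands Cxcl13, Ccl12 and Ccl2 and the receptor Xcr1. Over all 17208 genes measured, 1.55% were called higher, 0.442% lower and 1.99% either way. The median over the 28 members above background on both arrays was 0.23, against -0.02 over all 16195 genes of that kind. Over the 33 members it was 0.33, and 24 differences were positive, against 45.1% of all genes. These 33 include members measured only through the regenerated overloaded array.

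Cxcl13 differed by 1.86 (technical SE 0.17), or 3.64-fold, and Ccl2 by 1.28 (technical SE 0.03), or 2.43-fold, from the signals given above. Both therefore passed the threshold in each of the overload comparisons. These share no array, but age and the row of the slide went with overload in both. Ccl12, which in mouse acts through Ccr2 as Ccl2 does, had signals of 40.6 units in regenerated overloaded, 42.6 in overloaded, 9.14 in regenerated and 7.74 in normal muscle. Both overloaded arrays were above background and neither of the others was. The fold over regenerated muscle was at least 2.47, and the fold of overloaded over normal muscle at least 1.31 because the limit of the normal array was higher. Xcr1, the Xcl1 receptor of cross-presenting dendritic cells, had signals of 38.1 units in regenerated overloaded, 4.95 in overloaded, 4.28 in regenerated and 8.58 in normal muscle, each from 1 spot. Regenerated overloaded muscle was alone above background, by at least 2.31-fold over regenerated muscle. Its second probe was above background on no array, so the Xcr1 value rests on a single spot.

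In regenerated overloaded against overloaded muscle, 2 of the 34 measured members were higher by 2-fold or more and none was lower, namely Ccl11 and Xcr1. Over all 17493 genes measured, 1.01% were called higher, 0.68% lower and 1.69% either way. The median over the 30 members above background on both arrays was 0.06, against -0.01 over all 16316 genes of that kind. Ccl11 differed by 1.08 (technical SE 0.11), or 2.11-fold, and Xcr1 by at least 2.59-fold from its single spot.

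Ccl21 came next in that comparison. It holds naive T cells and dendritic cells at lymphatic vessels and lymph nodes through Ccr7, and had signals of 2021 units in regenerated overloaded, 1011 in overloaded, 1541 in regenerated and 900.2 in normal muscle. Both arrays with earlier injury were above both without, and the difference between the overloaded arrays was 0.999 (technical SE 0.06), a fold of 1.998 and so just under the threshold. It passed 2-fold under quantile normalization and under the scaling of the authors' deposited table. Summed signals of the lymphatic endothelial markers Lyve1, Prox1, Pdpn and Flt4 were 5.86 times the 75th percentile in regenerated overloaded, 5.11 in overloaded, 4.07 in regenerated and 3.10 in normal muscle, with Prox1 above background on no array. Pdpn, which fibroblasts also carry, set this order, with 3597 units in regenerated overloaded, 2909 in overloaded, 2186 in regenerated and 1490 in normal muscle. Lyve1 and Flt4 had log2 differences of -0.19 and -0.20 in regenerated overloaded minus overloaded muscle, and the median of the 3 measured markers was -0.19 there. Their part in the Ccl21 values was not tested.

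**Figure D3:**
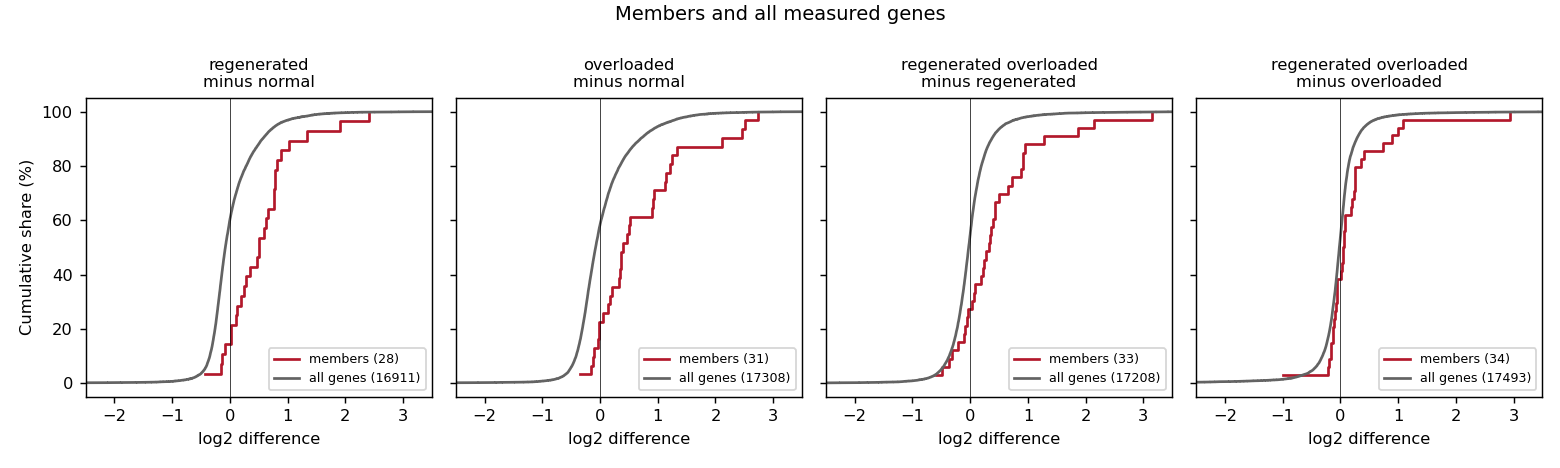
Cumulative share of log2 differences for members above background on at least 1 array (steps) and for all measured genes (smooth line) in the 4 comparisons, with dim signals taken as they stood. The member curve lies furthest to the right of the curve of all genes in regenerated and in overloaded against normal muscle, where part of the members were measured only through the array on which they were high. Over members above background on both arrays the medians were 0.28 and 0.35, against -0.11 and -0.12 over all such genes.

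The member medians depend on how arrays were scaled, since the median of all genes was -0.08 in regenerated and -0.08 in overloaded against normal muscle, and 0.05 and 0.10 with the scaling of the authors' deposited table. Relative to the median of all genes, a distance that a constant per array cannot change, the member medians stood 0.59 higher in regenerated against normal muscle and 0.48 higher in overloaded against normal muscle. Those values include members measured through 1 array alone, and among members and genes above background on both arrays the distances were 0.39 and 0.47. With normexp background correction, over members measured on 1 or both arrays, the distances were 0.22 and 0.31. Only Ccl11 in regenerated against normal, Ccl6 in overloaded against normal and Ccl2 in regenerated overloaded against regenerated muscle then stayed past 2-fold, 3 of the 17 calls. That correction started from the median spot and local background signals, not from the processed signal, so the detrending was left out too. It also added an offset of 50 units to each signal, which by itself makes folds of dim probes smaller. Calls of members above background on both arrays were lost as well. Ccl5 in regenerated against normal muscle fell to 0.75, and Ccl2 in overloaded against normal muscle to 0.94. Of the 17 calls, which fell on 12 members, 7 were made against an array where the member was below background.

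The effect of overload could be set side by side in muscle with and without earlier injury for the 21 members above background on all 4 arrays. The difference of differences, overload in regenerated minus overload in normal muscle, had a median of -0.19 over these members, against 0.07 over all 14417 genes above background on all 4 arrays. It was negative for 12 of the 21 members and for 38.0% of those genes. It reached 2-fold for no member, and for 54 genes upward and 56 downward among all genes. The lowest values were those of Ccl11 at -0.84 (technical SE 0.18), Ccl6 at -0.83 (technical SE 0.09), Ccl5 at -0.77 (technical SE 0.11) and Cxcl9 at -0.72 (technical SE 0.13). Ccl2 had 0.07 (technical SE 0.05), its overload differences being 1.28 in regenerated and 1.21 in normal muscle. For Ccl5 the same differences were 0.35 in regenerated and 1.13 in normal muscle. For Ccl6 they were 0.50 in regenerated and 1.33 in normal muscle.

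**Figure D4:**
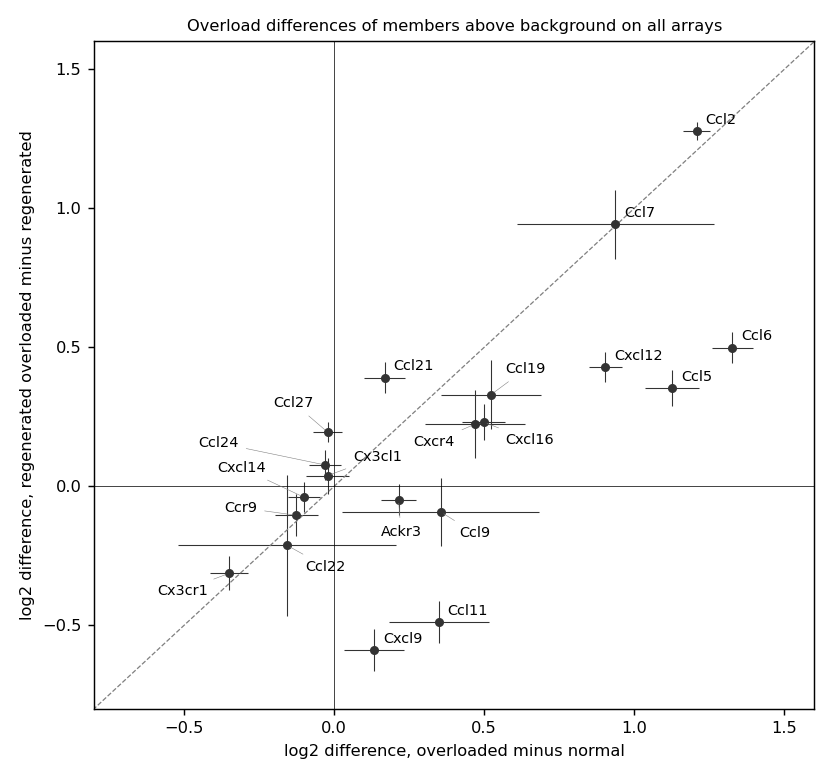
Log2 overload difference in regenerated muscle (vertical axis) against that in normal muscle (horizontal axis) for 20 of the members above background on all 4 arrays, with technical SE bars. The dashed line marks equal differences. Ccl2 and Ccl7 lie on or near it at the upper right, and Ccl6, Ccl5, Ccl11 and Cxcl9 lie furthest below it.

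Besides Ccl21 and Ccl6, the ligands chosen for the high mean signal of their probes were Cxcl14, Ccl24 and Cxcl12. None of these was called in any comparison, and Cxcl14 and Ccl24 differed little. Cxcl14, a chemokine of epithelia and stroma, had signals of 18560.2 units in regenerated overloaded, 16439 in overloaded, 19069.8 in regenerated and 17628 in normal muscle, and its differences lay between -0.10 and 0.18. Ccl24, or eotaxin-2, a ligand of Ccr3, had signals of 8443 units in regenerated overloaded, 8304 in overloaded, 8004 in regenerated and 8483 in normal muscle with differences between -0.08 and 0.08. The 4 arrays were close together for both genes.

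Cxcl12, or SDF-1, acts through Cxcr4 and is also taken up by Ackr3. Its brighter probe had signals of 3558 units in regenerated overloaded, 3111 in overloaded, 2643 in regenerated and 1663 in normal muscle, with normal muscle lowest and differences from normal muscle of 0.67 (technical SE 0.06) in regenerated and 0.90 (technical SE 0.06) in overloaded muscle. A second probe, designed on another RefSeq transcript of Cxcl12, had signals of 2114 units in regenerated overloaded, 2744 in overloaded, 2530 in regenerated and 2808 in normal muscle, with normal muscle highest. Its differences from normal muscle were -0.15 in regenerated and -0.03 in overloaded muscle. The probes thus disagree in direction, and the Cxcl12 difference holds for 1 transcript probe alone.

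The other 10 ligands above background on at least 2 arrays stayed within 2-fold in every comparison where both arrays were above background, with differences between -0.59 and 0.94. Cxcl9 gave the lowest of these, in regenerated overloaded against regenerated muscle, and Ccl7, a second ligand of Ccr2, the highest, in the same comparison. Ccl27, which draws T cells to skin, had the lowest difference of regenerated minus normal muscle among the members, -0.43 (technical SE 0.05) over 8 to 10 spots per array. Cxcl16, a membrane-bound ligand of Cxcr6, and Ccl19, a ligand of Ccr7, were 0.51 and 0.28 higher in regenerated than in normal muscle and 0.50 and 0.52 higher in overloaded than in normal muscle. Ccl22 and Ccl17, ligands of Ccr4, had no difference beyond -0.21 and -0.36 between arrays that were both above background. Cxcl1, a ligand of Cxcr2 that moves neutrophils, was 0.73 (technical SE 0.25) higher in regenerated overloaded than in overloaded muscle.

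Among the receptors chosen in the same way were Ackr3, Cx3cr1, Ccr9 and Cxcr4. Ackr3, the scavenger of Cxcl12, had signals of 1283 units in regenerated overloaded, 1349 in overloaded, 1326 in regenerated and 1162 in normal muscle, and Cxcr4, which leukocytes and muscle progenitors carry, had 139 units in regenerated overloaded, 151 in overloaded, 119 in regenerated and 109 in normal muscle. Normal muscle was lowest for both, and the largest differences were 0.21 for Ackr3 and 0.47 for Cxcr4, in overloaded against normal muscle. Cx3cr1, carried by resident macrophages and patrolling monocytes, had signals of 827 units in regenerated overloaded, 794 in overloaded, 1028 in regenerated and 1012 in normal muscle. Both overloaded arrays were low, with overload differences of -0.31 (technical SE 0.06) in regenerated and -0.35 (technical SE 0.06) in normal muscle, under 2-fold. Its ligand Cx3cl1, or fractalkine, differed by at most 0.08 in either direction. Ccr9, a receptor of gut-homing T cells, had signals of 407 units in regenerated overloaded, 443 in overloaded, 437 in regenerated and 483 in normal muscle and differed by at most 0.14 in size, and its ligand Ccl25 was above background on no array.

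Of 31 ligand and receptor pairs with both genes on the array, 15 had both sides above background on at least 1 array and 4 on all 4 arrays. They included Cxcl12 with Cxcr4, Cxcl12 with Ackr3, and Cx3cl1 with Cx3cr1. In 10 pairs the ligand was above background and its receptor on no array, among them Ccl11 and Ccl24 with Ccr3, Ccl19 and Ccl21 with Ccr7, and Cxcl16 with Cxcr6. The monocyte receptor Ccr2 had 25.9 and 27.6 units in regenerated overloaded and overloaded muscle, both above background, and was not above background at 13.7 and 20.9 units in regenerated and normal muscle. No fold of overloaded over normal muscle could be given for Ccr2, since the limit of the normal array was higher than either overloaded signal. Fewer cells of a type and less RNA per cell cannot be told apart in these mixed muscles.

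Several members called in the same comparisons are neighbours on chromosome 10 in the reference gene order. Ccl2, Ccl7, Ccl11, Ccl12 and Ccl1 form 1 run and Ccl5, Ccl9, Ccl6, Ccl3 and Ccl4 another, with no other protein-coding gene of the table between the members of a run. Within the first run the order of arrays differed between neighbours. Ccl2 and Ccl7 had overload differences of 1.28 and 0.94 in regenerated and of 1.21 and 0.94 in normal muscle, whereas Ccl11, next to Ccl7, had -0.49 in regenerated and 0.35 in normal muscle. In regenerated against normal muscle Ccl11 stood at 1.92, and Ccl2 and Ccl7 at 0.34 and 0.24. Within the second run, Ccl9 had its higher differences with injury, at 1.33 in regenerated against normal and 0.89 in regenerated overloaded against overloaded muscle. Its neighbour Ccl6 had 0.76 and -0.06 in those comparisons. On chromosome 14, Cxcl9 and Cxcl10, both interferon-induced ligands of Cxcr3, are also adjacent. Cxcl9 had its highest signal on the regenerated array, at 553 units against 324 to 368 units on the others, whereas Cxcl10 had its highest on the overloaded array.

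**Figure D5:**
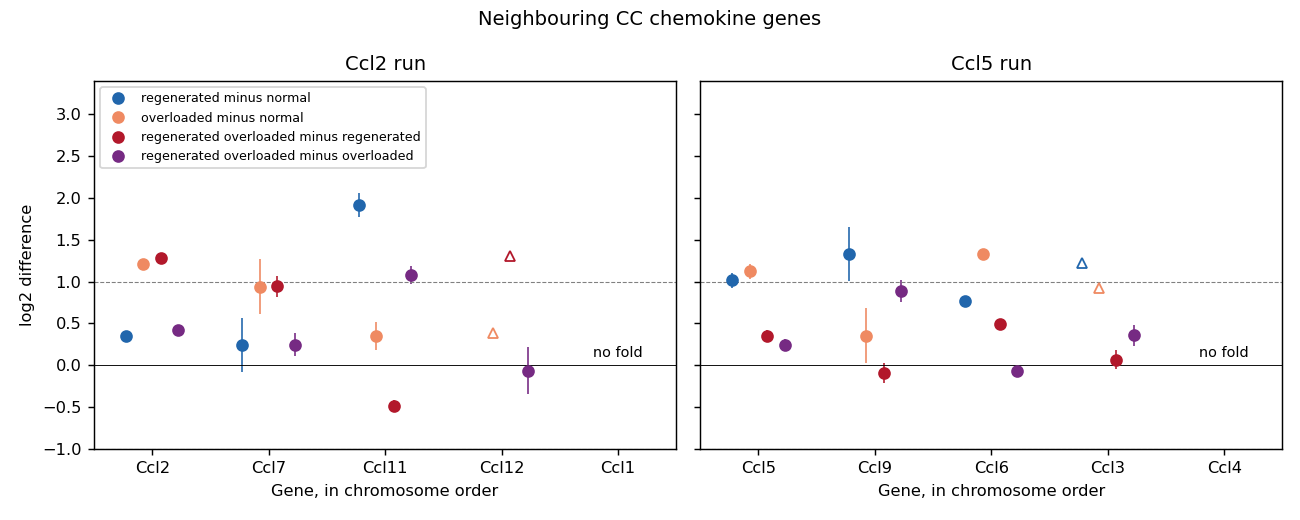
Log2 differences of the neighbouring ligand genes in their chromosome order for the run that holds Ccl2 (left) and the run that holds Ccl5 (right), coloured by comparison, with technical SE bars. Triangles are at-least values, and Ccl1 and Ccl4 gave no fold in any comparison. Ccl2 and Ccl11, in 1 run, have their highest points in different comparisons.

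Genes that act around chemokines were counted from lists. Of the proteases and proteoglycans that trim, shed or hold chemokines, 12 were on the array. Of these, 2 of 10 measured were called higher in regenerated against normal, 2 of 9 in overloaded against normal, 1 of 10 in regenerated overloaded against regenerated and 1 of 10 in regenerated overloaded against overloaded muscle, and none lower. Mmp2, which cleaves Cxcl12 and Ccl7, differed from normal muscle by 1.16 in regenerated and 1.44 in overloaded muscle. Mmp14, a membrane protease that activates Mmp2, differed from normal muscle by 1.27 in regenerated and 2.27 in overloaded muscle, and by 1.22 in regenerated overloaded against regenerated muscle. The macrophage elastase Mmp12 exceeded overloaded muscle in regenerated overloaded muscle by at least 2.44-fold.

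Of the genes for receptor signalling, 18 of 21 on the array were measured in each comparison, and Rgs1, a brake on Gi signalling, was called higher alone, by at least 2.19-fold in regenerated against normal muscle. Of the cytokines and regulators that induce chemokine genes, 12 of 18 were measured, and Il1b alone was called, at 1.25 (technical SE 0.15) in overloaded against normal muscle. Il1a, Il6, Il4, Il13, Ifng and Il17a were above background on no array. Of 9 genes for chemokine-like proteins and other chemokine-binding proteins, 8 were measured, and Cd74, the receptor of Mif and invariant chain of MHC class II, was called higher alone, at 1.03 (technical SE 0.05) in overloaded against normal muscle.

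Markers of cells that make or follow chemokines moved with the groups too. Of 9 macrophage markers, all were above background on every array, and their summed signal was 57.7 times the 75th percentile in regenerated overloaded, 53.1 in overloaded, 48.9 in regenerated and 31.2 in normal muscle. Cd68 was called higher in regenerated against normal muscle at 1.05, and Cd68, Adgre1 and Aif1 in overloaded against normal muscle at 1.02, 1.21 and 1.03. The list's median difference was 0.61 in regenerated against normal, 0.72 in overloaded against normal, 0.22 in regenerated overloaded against regenerated and 0.07 in regenerated overloaded against overloaded muscle. The 5 fibroblast markers summed to 123 times the 75th percentile in regenerated overloaded, 96.5 in overloaded, 73.7 in regenerated and 44.2 in normal muscle. Among them Col1a1 was called higher in 3 comparisons, at 1.37 in regenerated against normal, 1.83 in overloaded against normal and 1.07 in regenerated overloaded against regenerated muscle. Lum and Thy1 were called in both overload comparisons, Lum at 1.56 and Thy1 at 1.73 in regenerated overloaded against regenerated muscle, and Lum at 1.40 and Thy1 at 2.19-fold or more in overloaded against normal muscle. The part of these markers in the chemokine values was not tested.

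Among markers of other leukocytes, besides Xcr1 in the dendritic cell list, Prf1 and Pou2af1 alone were called. Of 8 T and NK cell markers, 5 were above background in regenerated overloaded, 4 in overloaded, 4 in regenerated and 2 in normal muscle. Cd3d and Cd3g passed on all 4 arrays, and Cd3e, Lck and Ncr1 on none. Of 6 neutrophil markers, S100a9 passed on all 4 arrays, S100a8 and Camp on every array but normal, and Elane, Csf3r and Ltf on none. Prf1 was called in overloaded against normal muscle at 2.09-fold or more. The summed T and NK cell signal was 0.64 times the 75th percentile in regenerated overloaded, 0.64 in overloaded, 0.60 in regenerated and 0.43 in normal muscle. The neutrophil sum was 0.27 in regenerated overloaded, 0.23 in overloaded, 0.21 in regenerated and 0.21 in normal muscle. Of the B cell markers, 3 were on the array, and Pou2af1 was the one above background, highest in regenerated muscle. It exceeded normal muscle there by at least 2.83-fold, and regenerated overloaded muscle was below regenerated muscle by 1.48 on the log2 scale. Mast cell markers summed to between 0.79 and 1.03 times the 75th percentile and endothelial markers to between 11.8 and 12.8, and none of them was called.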

How the data were processed

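RNA of rat soleus was measured on 4 arrays, 1 per group. The deposited scanner files hold the processed signal as an intensity, background-subtracted and detrended by Feature Extraction 11.5.1.1, per the file headers (version 10.10.1.1 per the submitters' processing notes), with flags (other) for spots above background. The authors' deposited series table holds an intensity equal to the processed signal times 1 constant per array (1.95 to 2.14). No value column lacked a sample.

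Each array has 62976 spots and 58717 probe spots. Spots with an outlier flag (406 to 451 per array) were dropped, and none was saturated. The log2 of each processed signal was set against the array's 75th percentile, spots were averaged over 30367 probes, and a gene was read from its brightest probe. Probes were named by accession through a RefSeq table of build GRCr8, used for names, gene order and promoter sequences, since the headers place probes on rn4. Technical SEs pool the SD between spots over probes of like signal, 0.10 to 0.13 on the log2 scale above background.

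Values on every array are given for members that differed 2-fold or more in any of the 4 comparisons and for the 5 ligands and 5 receptors with the highest mean log2 signal. Other genes of lists were named at 2-fold or more. A few genes enter the counts and are not reported here by name. The members and lists were chosen with earlier results of these data known. Averaging of spots and the differences of overloaded against normal muscle were run on simulated data, for genes above background on both arrays. The rule for dim arrays, the scaling, the alternatives and the promoter matches were not tested in that way. The work used Python 3.11.15, numpy 2.4.6, pandas 2.3.3, matplotlib 3.10.9, and R 4.3.3 with limma 3.58.1 for normexp. The number of arrays limits the precision.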

Additional observations from a re-analysis of the deposited data

How the results depend on the processing

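The 17 calls were examined under 8 alternatives, and 112 of the 136 combinations kept the call while 24 did not. No called value changed sign, and 486 of 597 values of named members moved by less than their technical SE. Part of these values could not move. Averaging probes changes nothing for members with 1 probe, and both changes of filter leave differences between arrays above background as they were. The counts are therefore no measure of how firm the calls are. Normexp background correction left 1 call for regenerated minus normal, 1 for overloaded minus normal, 1 for regenerated overloaded minus regenerated and 0 for regenerated overloaded minus overloaded muscle. Medians of the first 3 were then 0.117, 0.141 and 0.0899, and calls over all genes in the first 2 were 96 and 182, against 324 and 546. In the last 2 the calls over all genes were 101 and 69, against 342 and 295. Normexp was run on the median spot and local background signals, without the detrending of the processed signal. Its offset of 50 units makes folds of dim probes smaller, and it also read Cxcl12 from its other probe. The authors' constants gave 11 calls and a median of 0.575 for overloaded minus normal muscle, adding Ccl3, Ccl7, Cxcl12 and Xcl1, and a median of 0.641 for regenerated minus normal muscle. All-gene calls were then 789 and 413. The percentile over probes above background on all arrays also gave 11 calls, adding the same 4 members. In that comparison 3.46% of all genes measured were then called higher. Requiring both arrays above background left 4 calls for overloaded minus normal, 2 for regenerated overloaded minus regenerated and 1 for regenerated overloaded minus overloaded muscle, and a median of 0.280 for regenerated minus normal muscle. With no filter, 3 members were lower in regenerated and 6 in overloaded than in normal muscle, all of them not above background on either array compared. Medians of the first 3 comparisons were then 0.190, 0.158 and 0.127. Calls over all genes in the first 2, in either direction, were 2209 and 5698. Averaging probes ended both Xcr1 calls, leaving 3 calls for regenerated overloaded minus regenerated and 1 for regenerated overloaded minus overloaded muscle. Over all genes measured, 1.45% and 0.955% were then called higher. Quantile normalization made 1 member, Cxcl10, lower there, and ended the call of Ccl5 in regenerated muscle. The parts of the offset and of the changed input signal in the normexp counts were not tested, nor was the cause of the other shifts.

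No paired analysis was possible because each group has 1 array. Of the 17 calls, 7 were made against dim arrays, 4 of them against the normal array, and among these the Ccr1 value is not a lower limit.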
